A study of Mus musculus with 9 samples.

Results

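Solute carriers are membrane proteins that move sugars, amino acids, nucleosides, vitamins, metals and ions into and out of cells and organelles, and each transporter of the family is named Slc with a family number and a member number. The plasma membrane holds carriers for nutrient uptake and lactate export, the lysosome holds carriers for peptides, amino acids and nucleosides, and the inner mitochondrial membrane holds most of the Slc25 family. Neutrophils, the short-lived granulocytes of innate immunity, live largely on glycolysis and so rely on carriers that bring in fuel and export lactate. The genes described here were chosen by their read counts: all those of the deposited table whose symbol matched the Slc pattern and that had at least 100 reads in all 3 libraries of at least 1 tissue, apart from 7 left out by name, of which 6 met that minimum. They numbered 131 of 24532 genes. The table held 345 genes of the pattern, of which 207 stayed below the minimum in every tissue and 56 had 0 reads in all 9 libraries.

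The cells were labelled neutrophils and came from the lung, the blood and the bone marrow of wild-type C57BL/6 mice, with 3 biological replicates per tissue and 9 libraries of polyadenylated RNA in all. All groups shared this genotype and strain, and the labels name no treatment. The cells were sorted on a FACS Aria III, and no source used here gives the sort markers, the ages of the mice or any pooling. Bone marrow is where neutrophils are made, and it stands here as the starting point for blood and lung. In such bulk samples fewer cells of a type and less RNA per cell cannot be told apart.

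Each library held between 42045548 and 56796219 reads, so 3 reads, taken as the floor, were 0.0521 to 0.0767 CPM (read counts over library sizes corrected by TMM, the trimmed mean of M-values). Whether libraries lie above, below or within each other is given on that scale. Neutrophil markers were abundant in every library, with 10 listed genes summing to 20188 to 36738 CPM in lung, 27792 to 39172 in blood and 93185 to 134894 in bone marrow. Transcripts of other cells were also present. The summed levels of 8 fibroblast markers were 1668, 1351 and 98.2 CPM in lung replicates 1, 2 and 3, against 42.6, 8.33 and 7.16 in blood and 41.3, 43.8 and 162 in bone marrow. The 8 macrophage markers summed to 222, 254 and 54.97 CPM in lung, 13.1, 12.8 and 5.32 in blood and 8.13, 12.5 and 21.02 in bone marrow, and the 8 B cell markers to 495, 441 and 50.2 CPM in lung, 458, 446 and 73.5 in blood and 114, 65.5 and 31.6 in bone marrow. The 11 alveolar epithelium markers summed to 1035, 394 and 232 CPM in lung, 129, 123 and 129 in blood and 117, 119 and 221 in bone marrow. Lung replicate 3 was the lowest lung library in each of these sums of other cells. In B cell markers replicate 3 was also the lowest of its tissue in blood and bone marrow.

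The reads of the 131 genes made up 1.17% to 1.28% of all reads in lung, 0.788% to 0.813% in blood and 0.742% to 0.822% in bone marrow. These shares come from the reads that chose the genes and are given as a description. The 3 most abundant in lung, Slc16a3, Slc15a3 and Slc2a6, held 39.5% of the summed CPM of all 131 in lung, 15.3% in blood and 21.2% in bone marrow. Of the 131 genes, 102 met the minimum in all 3 tissues, 17 in 2 tissues and 12 in 1 tissue, of which 7 did so in lung, 3 in blood and 2 in bone marrow. The lowest member was Slc35a1, with 103 reads in its lowest blood library, followed by Slc8a1 with 118 and Slc52a3 with 120 in their own best tissue. Just below the minimum lay Slc5a11 with 99 reads, Slc25a2 with 97, Slc25a4 and Slc16a7 with 94 each and Slc34a2 with 90. Slc34a2 had 1698, 635 and 90 reads in lung, 5, 0 and 13 in blood and 3, 3 and 107 in bone marrow. Of the 131, 5 bear an Slc symbol without being carriers. Slc9a3r1 and Slc9a3r2 encode scaffold proteins, Slc4a1ap an adaptor protein, Slc2a4rg-ps is a pseudogene and Slc7a6os is named as lying on the strand opposite Slc7a6. The listed spans of these 2 neighbours on chromosome 8 did not overlap, at 106200438 to 106210933 for Slc7a6os and 106168875 to 106198704 for Slc7a6.

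The libraries were compared in all 3 pairs of tissues with edgeR's quasi-likelihood test over 13510 genes, and a gene was called at a Benjamini-Hochberg adjusted p under 0.05. All 131 genes were among those tested. Each tissue enters 2 of the comparisons, so their results are not independent. In blood against bone marrow 19 of the 131 genes were higher and 21 lower. The percentage of all tested genes called there was 21.4% (8.34% higher, 13.1% lower), and among the 9036 genes of the table that meet the same read minimum it was 29.2% (11.4% higher, 17.8% lower). In lung against blood 27 were higher and 28 lower, beside 28.9% of all tested genes (13.2% higher, 15.7% lower) and 35.6% of genes at the read minimum (12.6% higher, 23.0% lower). In lung against bone marrow 36 were higher and 40 lower, beside 38.2% of all tested genes (15.6% higher, 22.6% lower) and 48.9% of genes at the minimum (16.5% higher, 32.4% lower). A gene that met the minimum in 1 tissue alone was in part chosen for a difference, and among the 102 genes that met it in all 3 tissues the counts were 14 higher and 17 lower, 18 higher and 24 lower, and 22 higher and 34 lower, in the same order of comparisons. The median log2 fold change of the 131 genes was 0.03, -0.15 and -0.04 in that order, beside -0.05, 0.05 and 0.06 for all tested genes and -0.06, -0.15 and -0.21 for genes at the read minimum. The counts given by role are to be read against the same percentages, and no role was tested as a set.

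The values of the 2 tissues were without overlap in 78 members for blood against bone marrow (45.4% of all tested genes, 55.4% at the read minimum), 79 for lung against blood (41.6% and 49.8%) and 89 for lung against bone marrow (49.0% and 60.2%). Of the 131 members, 14 were called in all 3 comparisons, 49 in 2, 31 in 1 and 37 in 0, beside 4.46%, 29.4%, 16.4% and 49.8% of all tested genes and 6.58%, 38.0%, 17.9% and 37.5% of genes at the read minimum. The counts of calls moved with single libraries. In blood against bone marrow the count of higher members was 10 without blood replicate 3 and 12 without bone marrow replicate 2. The count of lower members there was 8, 6 and 8 without blood replicates 1, 2 and 3, and 13 and 10 without bone marrow replicates 2 and 3. In lung against blood the lower members numbered 18 without lung replicate 1, 17 without blood replicate 1 and 7 without blood replicate 3. The split of higher and lower calls also moved with the scaling. Of the members called in lung against blood, 49.1% were higher with TMM, 62.2% with RLE size factors and 59.6% with upper-quartile scaling or DESeq2. In lung against bone marrow 47.4% were higher with TMM, 58.0% with RLE, 64.9% with upper-quartile scaling and 59.3% with DESeq2. In blood against bone marrow 47.5% were higher with TMM and 60.5% with upper-quartile scaling. The split of all called genes moved likewise. In lung against blood 45.6% of them were higher with TMM, 56.9% with RLE, 55.9% with upper-quartile scaling and 57.3% with DESeq2. For lung against bone marrow the values were 40.9%, 52.0%, 59.3% and 54.7%, and for blood against bone marrow 39.0% with TMM and 52.6% with upper-quartile scaling. The median log2 fold change of all genes with upper-quartile scaling was 0.11 in blood against bone marrow, 0.21 in lung against blood and 0.38 in lung against bone marrow, and with RLE it was 0.20 in lung against bone marrow.

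By both of its comparisons lung was the highest tissue for 21 members, blood for 7 and bone marrow for 16, as the heat map of these genes shows. The same held for 7.69%, 2.86% and 9.30% of all tested genes and for 7.74%, 4.15% and 13.4% of genes at the read minimum. Lung was the lowest tissue for 18 members, blood for 6 and bone marrow for 9, beside 11.2%, 2.96% and 4.32% of all tested genes and 16.5%, 3.62% and 5.81% of genes at the read minimum. The blood count was 11 without lung replicate 3 and 1 without blood replicate 3. The bone marrow count was 4, 4 and 6 without blood replicates 1, 2 and 3, and 8, 7 and 6 without bone marrow replicates 1, 2 and 3. The lung count stayed between 16 and 23 in the 9 fits that each left out 1 library.

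**Figure D1:**
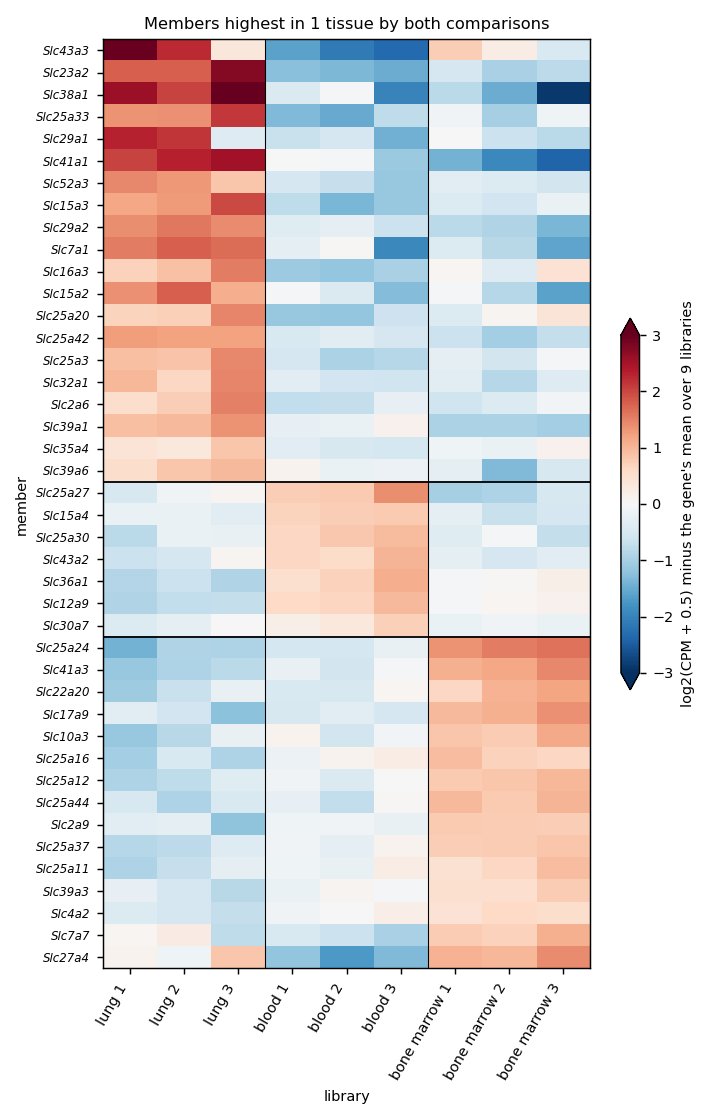
Heat map of 42 of the 44 members that were highest in 1 tissue by both edgeR comparisons, 1 row per gene and 1 column per library, coloured by log2(CPM + 0.5) minus the gene's mean over the 9 libraries and saturating at 3. The blocks from top to bottom are 20 genes highest in lung, the 7 highest in blood and 15 highest in bone marrow, and Slc43a3 and Slc29a1 are paler in lung replicate 3 than in the other lung libraries.

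Carriers of lactate, sugar and phosphate were led by Slc16a3, which encodes the proton-coupled monocarboxylate transporter that exports lactate (chromosome 11, 120948484 to 120959000 in mm10). Its deposited FPKM, a level per transcript length, was the highest of the 131 genes at 820.0, 888 and 972 in lung, 219, 241 and 226 in blood and 415, 294 and 446 in bone marrow. On the CPM scale it stood at 1752, 1975 and 3131 in lung, 509, 485 and 552 in blood and 1124, 828 and 1458 in bone marrow. Every lung library lay above every bone marrow library, and every bone marrow library above every blood library. The log2 fold change of lung over blood was 2.15 ± 0.30 (± standard error, here and throughout; adjusted p = 0.00141). That of blood over bone marrow was -1.14 ± 0.29 (adjusted p = 0.0226), a call not made without blood replicates 1, 2 and 3, without bone marrow replicates 1 and 3, with RLE size factors, with no filter on low counts or with halved counts (adjusted p = 0.171, 0.193, 0.126, 0.0664, 0.103, 0.0544, 0.0862 and 0.0553). That of lung over bone marrow was 1.01 ± 0.29 (adjusted p = 0.0233), a call not made without blood replicates 1 and 2, without bone marrow replicates 1 and 2 or in a fit of the 6 libraries compared (adjusted p = 0.0535, 0.0513, 0.0876, 0.120 and 0.0719).

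Lung replicate 3 had the highest CPM of Slc16a3 and the lowest fibroblast, macrophage and B cell sums of the lung libraries. Its TMM factor was 0.791, against 1.19 and 1.14 in the other lung libraries, which raises every CPM of that library. In FPKM, which does not use that factor, Slc16a3 ranged from 820.0 to 972 among the lung libraries. The fibroblast markers were called higher in lung than in blood for 8 of 8 genes, the macrophage markers for 7 of 8 and the alveolar epithelium markers for 7 of 11. Their part in the lung levels of the solute carriers was not tested.

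Slc2a6 encodes a glucose transporter relative found on lysosomes and was the other abundant carrier of this group. It had 601, 707 and 1204 CPM in lung, 253, 257 and 357 in blood and 277, 315 and 394 in bone marrow. All lung libraries lay above all others, while blood and bone marrow overlapped. Its log2 fold change of lung over bone marrow was 1.35 ± 0.29 (adjusted p = 0.00690). That of lung over blood was 1.54 ± 0.30 (adjusted p = 0.00564), but the call was not made without blood replicates 1 and 2 (adjusted p = 0.0522 and 0.0532). Slc2a9, a urate transporter, had 3.52, 3.61 and 1.71 CPM in lung, 4.14, 4.19 and 3.87 in blood and 8.25, 8.13 and 7.95 in bone marrow. On the log2 scale its fold change of lung over bone marrow was -1.46 ± 0.30 (adjusted p = 0.00516). Slc20a1, the sodium-dependent phosphate importer, had 238, 295 and 374 CPM in lung, 437, 141 and 158 in blood and 374, 228 and 345 in bone marrow, and it passed in none of the 3 comparisons (adjusted p = 0.601, 0.643 and 0.921 for blood against bone marrow, lung against blood and lung against bone marrow). Its 3 tissues overlapped, and blood replicate 1 was the highest library of all.

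**Figure D2:**
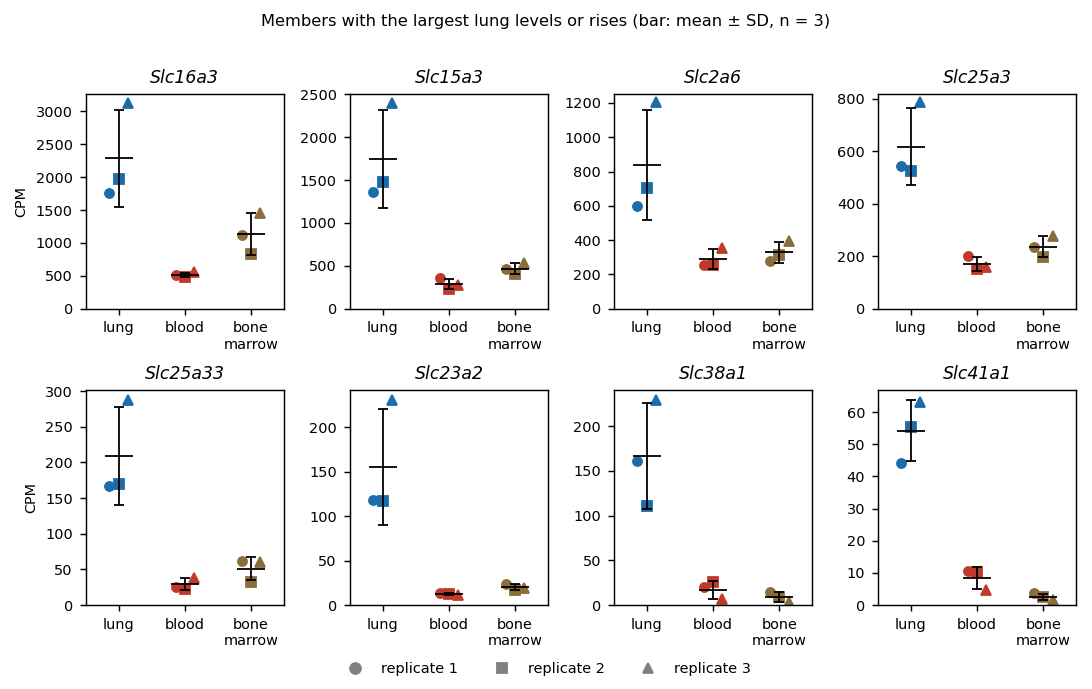
CPM of 8 members highest in lung, on linear axes from 0, for lung, blood and bone marrow, with 1 point per library, replicates marked by shape, and a bar at the mean ± SD (n = 3). In each panel the 3 lung points lie above every blood and bone marrow point, and lung replicate 3 is the highest.

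The start regions of 4 members are printed because Slc16a3 had the highest level in lung, Slc41a1 the largest rise in lung against bone marrow, Slc23a2 the largest rise in lung against blood that was called in every alternative fit, and Slc25a24 the largest fall in lung against bone marrow. They are RefSeq sequences of GRCm38.p6, the assembly also called mm10, and run from 250 bases before to 50 bases after the listed start on the gene's strand. Capitals mark ACGTG, or CACGT where it lies on the other strand, the core of the hypoxia response element, which also forms part of the E-box CACGTG. The 300 bases of Slc16a3 (chr11:120948817-120949116, plus strand) hold it 2 times and those of Slc41a1 (chr1:131827762-131828061, plus strand) hold it 1 time. Those of Slc23a2 (chr2:132145059-132145358, minus strand) and of Slc25a24 (chr3:109122899-109123198, plus strand) hold 0 such matches.
Slc16a3: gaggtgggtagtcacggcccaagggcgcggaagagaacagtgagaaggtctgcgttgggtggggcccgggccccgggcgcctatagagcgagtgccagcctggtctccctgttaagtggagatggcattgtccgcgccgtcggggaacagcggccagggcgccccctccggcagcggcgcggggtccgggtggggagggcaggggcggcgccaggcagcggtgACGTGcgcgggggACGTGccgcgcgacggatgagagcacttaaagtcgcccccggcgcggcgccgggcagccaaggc
Slc41a1: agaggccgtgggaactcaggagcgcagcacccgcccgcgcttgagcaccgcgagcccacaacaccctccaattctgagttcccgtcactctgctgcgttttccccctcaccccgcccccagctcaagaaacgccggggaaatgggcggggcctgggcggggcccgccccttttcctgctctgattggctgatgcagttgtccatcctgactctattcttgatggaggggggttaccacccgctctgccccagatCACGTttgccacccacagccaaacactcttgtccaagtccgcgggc
Slc23a2: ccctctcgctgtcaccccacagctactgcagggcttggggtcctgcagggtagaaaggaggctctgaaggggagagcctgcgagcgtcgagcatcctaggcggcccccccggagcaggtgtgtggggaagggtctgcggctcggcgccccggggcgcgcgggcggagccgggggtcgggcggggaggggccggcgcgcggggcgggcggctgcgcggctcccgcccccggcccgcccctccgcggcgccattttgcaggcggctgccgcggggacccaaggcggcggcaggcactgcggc
Slc25a24: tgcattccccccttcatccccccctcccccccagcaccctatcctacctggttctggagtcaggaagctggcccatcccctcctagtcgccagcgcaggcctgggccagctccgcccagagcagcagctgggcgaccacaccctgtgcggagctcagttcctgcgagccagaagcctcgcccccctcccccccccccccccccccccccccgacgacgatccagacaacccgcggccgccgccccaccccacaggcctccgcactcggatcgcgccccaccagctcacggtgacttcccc
A promoter of this table matched 100 of the 131 genes by symbol, and for 93 of them it lay within 100 bases of the start of the gene's main listed transcript. ACGTG was found on either strand in 33 of these 93 (35.5%), in 27.0% of 7059 promoters of genes at the same read minimum and in 19.7% of all 27025 promoters. For these 2 backgrounds the first listed promoter of each gene was taken, without matching it to a transcript start. The percentages here and for the sites below thus come from promoters chosen in unlike ways. By tissue it was found in 7 of 14 promoters of genes highest in lung, 4 of 6 of genes highest in blood and 0 of 7 of genes highest in bone marrow. The AP-1 site TGANTCA was found in 6 of the 93 (6.45%), 5.04% of promoters at the read minimum and 7.93% of all promoters. The C/EBP-ATF element TGATGNAA, which marks genes of the amino acid response, was found in 2 of the 93 (2.15%), 2.17% and 4.06%. Such matches describe these letters and say nothing of binding.

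Carriers of the lysosome and of vesicles included Slc15a3, which encodes a lysosomal transporter of histidine and small peptides. It had 1359, 1472 and 2395 CPM in lung, 357, 236 and 277 in blood and 459.9, 404 and 532 in bone marrow. The lowest lung library was above the highest of the other tissues, and the bone marrow libraries were above the blood libraries. The fitted log2 fold change was 2.59 ± 0.29 for lung over blood (adjusted p = 0.000538) and 1.90 ± 0.28 for lung over bone marrow (adjusted p = 0.000849). Slc15a4, its close relative on the same organelle and a partner of endosomal Toll-like receptor signalling, was highest in blood instead. It had 31.5, 31.1 and 28.9 CPM in lung, 57.4, 60.7 and 62.2 in blood and 29.3, 22.6 and 25.5 in bone marrow. The blood libraries were the highest and did not overlap with the others. The log2 fold change was 1.22 ± 0.13 for blood over bone marrow (adjusted p = 0.000280) and -0.98 ± 0.13 for lung over blood (adjusted p = 0.000973). The gene 5430427O19Rik, the mouse counterpart of the human adaptor TASL that binds SLC15A4, had 49.6, 77.4 and 105 CPM in lung, 42.9, 45.1 and 54.5 in blood and 18.3, 20.7 and 22.7 in bone marrow. It was higher in lung than in bone marrow (log2 fold change 1.91 ± 0.25, adjusted p = 0.000500) and higher in blood than in bone marrow (1.21 ± 0.25, adjusted p = 0.00922).

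Slc15a2, the peptide importer of the plasma membrane, had 70.3, 95.7 and 58.7 CPM in lung, 26.3, 19.97 and 10.7 in blood and 26.4, 14.6 and 8.62 in bone marrow. The gene was higher in lung than in blood (log2 fold change 1.98 ± 0.44, adjusted p = 0.0106) and than in bone marrow (log2 fold change 2.18 ± 0.45, adjusted p = 0.00511). Slc17a9, the vesicular nucleotide transporter that loads ATP into vesicles, had its highest level in bone marrow, with 12.1, 10.1 and 6.23 CPM in lung, 10.8, 11.9 and 10.6 in blood and 30.4, 32.6 and 39.9 in bone marrow. The bone marrow libraries stood alone, and lung and blood overlapped. The fitted log2 fold change was -1.63 ± 0.23 for blood over bone marrow (adjusted p = 0.00169) and -1.85 ± 0.24 for lung over bone marrow (adjusted p = 0.000417). Slc32a1, known as the vesicular transporter of inhibitory amino acids in neurons, had 6.86, 5.24 and 9.78 CPM in lung, 2.42, 1.98 and 1.97 in blood and 2.5, 1.55 and 2.33 in bone marrow, a log2 fold change of 1.78 ± 0.33 for lung over blood (adjusted p = 0.00497), and met the read minimum in lung alone. Of the 6 carriers of this group, 3 were higher and 1 lower in lung against blood, and 3 were higher and 1 lower in lung against bone marrow, and each of these calls was also made in the 9 fits that left out 1 library.

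**Figure D3:**
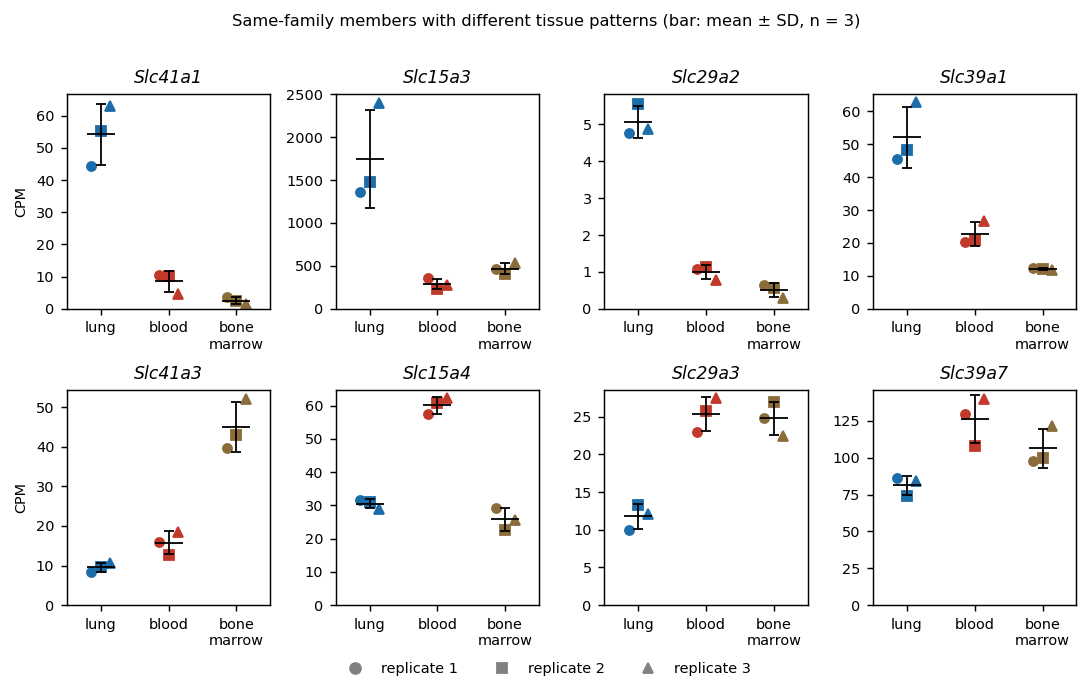
CPM of 4 pairs of same-family members, 1 pair per column, on linear axes from 0 for lung, blood and bone marrow, with 1 point per library and a bar at the mean ± SD (n = 3). The upper row (Slc41a1, Slc15a3, Slc29a2 and Slc39a1) is highest in lung, while Slc41a3 is highest in bone marrow, Slc15a4 and Slc39a7 in blood by their means, and Slc29a3 is lowest in lung.

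The mitochondrial carrier family Slc25 was the largest group, with 27 members, among them Slc25a17, which is described as a peroxisomal membrane protein. Of these, 5 were higher and 9 lower in lung against blood, 4 were higher and 7 lower in blood against bone marrow, and 5 were higher and 12 lower in lung against bone marrow. Beside these stand 12.6% higher and 23.0% lower, 11.4% and 17.8%, and 16.5% and 32.4% of genes at the read minimum, in the same order. Calls that held in each fit that left out 1 library numbered 5 higher and 0 lower, 2 higher and 1 lower, and 4 higher and 10 lower, in the same order. The summed FPKM of the 27 genes was 848 in lung, 550.1 in blood and 589 in bone marrow. The plot of calls by role sets this group beside the others.

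Slc25a3, the phosphate carrier that supplies ATP synthesis, was the most abundant of them by FPKM in each tissue. It had 543, 524 and 787 CPM in lung, 203, 150.1 and 159 in blood and 235, 198 and 278 in bone marrow, with lung above both other tissues in every library. The gene's log2 fold change was 1.86 ± 0.23 for lung over blood (adjusted p = 0.000857) and 1.38 ± 0.23 for lung over bone marrow (adjusted p = 0.00161). Slc25a33, a carrier of pyrimidine nucleotides, rose most within the group, to 168, 170.2 and 288 CPM in lung, against 25.9, 22.8 and 38.6 in blood and 61.4, 32.7 and 59.8 in bone marrow. Its log2 fold change was 2.84 ± 0.34 for lung over blood (adjusted p = 0.000731) and 2.02 ± 0.33 for lung over bone marrow (adjusted p = 0.00154). Slc25a5, the ADP/ATP translocase, passed in no comparison, with 112, 129 and 157 CPM in lung, 135, 111 and 132 in blood and 116, 114 and 129 in bone marrow. Its adjusted p was 0.787 for blood against bone marrow, 0.775 for lung against blood and 0.486 for lung against bone marrow.

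Slc25a20, the carnitine-acylcarnitine carrier of fatty acid oxidation, had 68.3, 69.5 and 119 CPM in lung, 19.1, 18.8 and 27.3 in blood and 31.9, 45.1 and 55.4 in bone marrow. Its level was higher in lung than in blood (log2 fold change 1.98 ± 0.29, adjusted p = 0.00177). Its lower level in blood than in bone marrow (-1.02 ± 0.28, adjusted p = 0.0322) was not called without blood replicates 1, 2 and 3, without bone marrow replicates 2 and 3, with RLE size factors, with no filter on low counts or with halved counts (adjusted p = 0.231, 0.247, 0.0831, 0.0964, 0.129, 0.0709, 0.0971 and 0.0757). Slc25a42, a coenzyme A carrier, stood at 8.48, 8.21 and 8.17 CPM in lung, 2.22, 2.45 and 2.15 in blood and 1.91, 1.33 and 1.76 in bone marrow, a log2 fold change of 2.31 ± 0.25 for lung over bone marrow (adjusted p = 0.000192), and met the read minimum in lung alone.

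**Figure D4:**
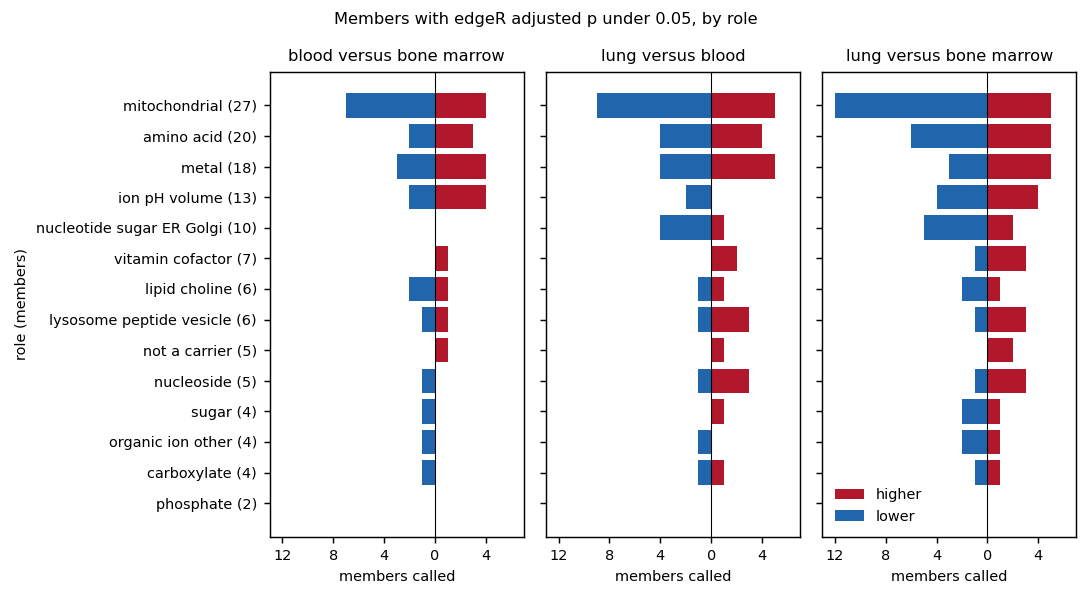
Members with an edgeR adjusted p under 0.05 in each of the 3 comparisons, 1 row per role with its number of members in brackets; bars to the right count higher members and bars to the left lower ones. The mitochondrial row has the longest bar to the left, 12 lower members in lung against bone marrow, and the phosphate row has no bar.

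Bone marrow was highest for Slc25a24, the calcium-regulated carrier of ATP-magnesium and phosphate. It had 14.5, 20.9 and 20.3 CPM in lung, 27.2, 27.1 and 33.5 in blood and 101, 115 and 123 in bone marrow. Every bone marrow library was above every library of the other tissues, and blood was above lung. The log2 fold change was -1.95 ± 0.18 for blood over bone marrow (adjusted p = 0.000140) and -2.61 ± 0.18 for lung over bone marrow (adjusted p = 2.74e-05). Slc25a12, the aspartate-glutamate carrier of the malate-aspartate shuttle, had 20.3, 23.02 and 30.2 CPM in lung, 36.7, 29.04 and 38.7 in blood and 67.5, 69.7 and 78.9 in bone marrow. On the log2 scale its fold change of lung over bone marrow was -1.55 ± 0.18 (adjusted p = 0.000246). That of blood over bone marrow was -1.05 ± 0.18 (adjusted p = 0.00384), a call not made without blood replicates 1 and 2 (adjusted p = 0.0642 and 0.0912). Slc25a11, the oxoglutarate carrier of the same shuttle, had 42.1, 49.5 and 65.3 CPM in lung, 73.7, 68.6 and 94.5 in blood and 111, 125 and 154 in bone marrow, and was lower in lung than in bone marrow (log2 fold change -1.31 ± 0.21, adjusted p = 0.00144). With a replicate block, in which the replicate number was a term of the fit, Slc25a12 and Slc25a11 were also lower in lung than in blood (adjusted p = 0.0215 and 0.00547, against 0.0598 and 0.0617 without it). Slc25a44, a carrier of branched-chain amino acids, was lower in the same comparison (log2 fold change -1.55 ± 0.21, adjusted p = 0.000612), with 37.2, 27.3 and 37.9 CPM in lung and 104, 90.7 and 107 in bone marrow. Slc25a16, a carrier linked to coenzyme A and relatively low in level, had 5.96, 9.09 and 6.48 CPM in lung, 11.2, 13.6 and 14.9 in blood and 24.6, 20.7 and 19.8 in bone marrow, with a log2 fold change of -1.60 ± 0.21 for lung over bone marrow (adjusted p = 0.000435). Slc25a45 had 26.8, 34.5 and 47.7 CPM in lung, 58.9, 62.2 and 88.4 in blood and 71.7, 82.6 and 114 in bone marrow. Its lung libraries lay below all others, with a log2 fold change of -1.30 ± 0.27 against bone marrow (adjusted p = 0.00512).

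The iron carriers of this family were lower in lung. Slc25a37, mitoferrin 1, which brings iron into mitochondria and is best known from red cell precursors, had 90.3, 94.1 and 124 CPM in lung, 150.1, 133 and 175 in blood and 269.7, 276 and 288 in bone marrow. It was lower in lung than in bone marrow (log2 fold change -1.43 ± 0.17, adjusted p = 0.000326). Its lower level in blood than in bone marrow (log2 fold change -0.86 ± 0.17, adjusted p = 0.00818) was not called without blood replicates 1, 2 and 3 or with no filter on low counts (adjusted p = 0.155, 0.190, 0.0667 and 0.0678). Erythroid markers, 12 of 13 listed genes being in the table, summed to 428, 342 and 51.1 CPM in lung, 14222, 9592 and 822 in blood and 13329, 14494 and 1715 in bone marrow, with Epb42 and Hemgn at 0 in all lung and blood libraries. The part of the erythroid transcripts in the level of Slc25a37 was not tested. Slc25a28, mitoferrin 2, was lower in lung than in bone marrow as well, at 26.2, 27.7 and 25.9 CPM against 44.5, 45.00 and 57.3 (-0.88 ± 0.14, adjusted p = 0.00131).

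Among the carriers of amino acids, 20 genes, 4 were higher and 4 lower in lung against blood, and 5 were higher and 6 lower in lung against bone marrow. Slc3a2, the CD98 heavy chain that brings several amino acid exchangers to the surface, was the most abundant by FPKM averaged over the 3 tissues, while in blood Slc6a6 and Slc38a2 were above it. It had 388, 457 and 762 CPM in lung, 131, 55.2 and 41.8 in blood and 296, 226 and 294 in bone marrow, and blood was below both other tissues in every library. It was higher in lung than in blood (log2 fold change 2.82 ± 0.45, adjusted p = 0.00250). It was lower in blood than in bone marrow (log2 fold change -1.84 ± 0.43, adjusted p = 0.0166), a call not made without blood replicates 2 and 3 or without bone marrow replicate 3 (adjusted p = 0.109, 0.0929 and 0.0560). Its light chain Slc7a5 passed in no comparison, with 10.4, 12.8 and 8.99 CPM in lung, 10.4, 5.44 and 3.83 in blood and 16.3, 10.8 and 6.83 in bone marrow and adjusted p of 0.213, 0.240 and 0.889 for blood against bone marrow, lung against blood and lung against bone marrow.

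Slc38a1, a sodium-coupled importer of glutamine and other neutral amino acids, rose in lung to 161, 110.3 and 229 CPM, against 19.9, 25.7 and 6.30 in blood and 15.1, 9.25 and 3.20 in bone marrow. The gene's log2 fold change was 3.27 ± 0.66 for lung over blood (adjusted p = 0.00713) and 4.18 ± 0.68 for lung over bone marrow (adjusted p = 0.00169). Slc38a1 was among 10 members whose series reads were not within 1.5 to 2.5 times their RSEM expected counts in blood and lung, and with RSEM it was still called higher in lung (log2 fold change 3.41 ± 0.54, adjusted p = 0.00801). Slc38a2, its relative, was more abundant at 295, 438 and 611 CPM in lung, 443, 239 and 329 in blood and 192, 184 and 197 in bone marrow. The gene was higher in lung than in bone marrow (log2 fold change 1.23 ± 0.30, adjusted p = 0.0114), a call not made without bone marrow replicate 2 (adjusted p = 0.0576). Slc7a1, the importer of arginine and lysine, had 27.9, 33.6 and 30.8 CPM in lung, 7.48, 9.59 and 2.08 in blood and 6.84, 5.02 and 2.76 in bone marrow. Its level was higher in lung than in blood (log2 fold change 2.27 ± 0.51, adjusted p = 0.0113) and than in bone marrow (log2 fold change 2.66 ± 0.52, adjusted p = 0.00419).

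By both of its comparisons blood was highest for Slc36a1, a proton-coupled exporter of small amino acids from the lysosome, and for Slc43a2, an importer of large neutral amino acids. Slc36a1 had 13.9, 16.5 and 13.7 CPM in lung, 36.9, 42.5 and 55.7 in blood and 25.4, 26.8 and 29.5 in bone marrow, with no overlap of any 2 tissues. Its log2 fold change of lung over blood was -1.62 ± 0.17 (adjusted p = 0.000488). That of blood over bone marrow was 0.73 ± 0.17 (adjusted p = 0.0158), a call not made without blood replicate 3 or without bone marrow replicates 1 and 2 (adjusted p = 0.0514, 0.0704 and 0.0770). Slc43a2 had 60.5, 66.5 and 100.5 CPM in lung, 146, 139.7 and 192 in blood and 76.9, 66.3 and 76.5 in bone marrow. On the log2 scale its fold change was -1.07 ± 0.22 for lung over blood and 1.12 ± 0.22 for blood over bone marrow (adjusted p = 0.00697 and 0.00701). Neither call was made without blood replicate 3 (adjusted p = 0.0888 and 0.0640). Slc36a3, a relative of Slc36a1, had 2.27, 2.55 and 4.12 CPM in lung and 3.68, 3.37 and 6.02 in blood, against 0.524, 0.686 and 0.588 in bone marrow, a log2 fold change of 2.86 ± 0.41 for blood over bone marrow (adjusted p = 0.00159) and 2.31 ± 0.40 for lung over bone marrow (adjusted p = 0.00216). Slc6a6, the taurine importer and an abundant carrier by FPKM, had 292, 461 and 560.2 CPM in lung, 647, 581 and 773 in blood and 579, 594 and 612 in bone marrow and passed in no comparison without the replicate block, although every lung library lay below all others (adjusted p = 0.687 for blood against bone marrow, 0.0952 for lung against blood and 0.183 for lung against bone marrow). With the block it was lower in lung than in blood (adjusted p = 0.0415).

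Metal carriers numbered 18, of which 5 were higher and 4 lower in lung against blood and 5 higher and 3 lower in lung against bone marrow. Slc41a1, which exports magnesium in exchange for sodium, had 44.3, 55.3 and 63.1 CPM in lung, 10.7, 10.2 and 4.64 in blood and 3.62, 2.41 and 1.59 in bone marrow, with no overlap of any 2 tissues. The fitted log2 fold change of lung over bone marrow was 4.41 ± 0.41 (adjusted p = 8.45e-05) and that of lung over blood 2.67 ± 0.38 (adjusted p = 0.00150). Slc41a3, its mitochondrial relative, ran the other way, with 8.30, 9.73 and 10.6 CPM in lung, 16.1, 12.7 and 18.5 in blood and 39.8, 43.1 and 52.1 in bone marrow. The gene's log2 fold change was -1.51 ± 0.18 for blood over bone marrow (adjusted p = 0.000610) and -2.24 ± 0.19 for lung over bone marrow (adjusted p = 5.01e-05).

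Zinc importers of the Slc39 family differed among themselves. Slc39a1, a zinc importer of the plasma membrane, had 45.5, 48.2 and 62.7 CPM in lung, 20.4, 20.98 and 26.7 in blood and 12.3, 12.2 and 11.8 in bone marrow. It was higher in lung than in blood (log2 fold change 1.20 ± 0.16, adjusted p = 0.00128) and than in bone marrow (log2 fold change 2.11 ± 0.17, adjusted p = 4.15e-05). Slc39a13, which moves zinc from intracellular stores, stood at 20.8, 21.6 and 25.97 CPM in lung and 23.98, 21.6 and 28.6 in blood, which overlapped, against 7.91, 7.82 and 8.95 in bone marrow. Its log2 fold change was 1.59 ± 0.16 for blood over bone marrow (adjusted p = 0.000229) and 1.47 ± 0.16 for lung over bone marrow (adjusted p = 0.000170). Slc39a7, the zinc channel of the endoplasmic reticulum, had 85.97, 73.8 and 83.98 CPM in lung, 129.9, 108 and 140.0 in blood and 97.6, 99.4 and 122 in bone marrow. It was lower in lung than in blood (log2 fold change -0.63 ± 0.15, adjusted p = 0.0144), a call not made without lung replicate 2, without blood replicates 1 and 3, with RLE size factors or with no filter on low counts (adjusted p = 0.0512, 0.0908, 0.129, 0.0736 and 0.0504). With the replicate block it was also lower in lung than in bone marrow (adjusted p = 0.0272, against 0.0734 without it). The metallothionein Mt1, whose transcript responds to zinc, stood at 64.9, 31.4 and 21.4 CPM in lung, 3.23, 1.32 and 1.88 in blood and 9.06, 4.33 and 17.4 in bone marrow, and was higher in lung than in blood (4.20 ± 0.65, adjusted p = 0.00232).

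Slc30a7, which loads zinc into the Golgi, had 25.97, 27.98 and 34.2 CPM in lung, 39.2, 43.00 and 57.4 in blood and 30.04, 32.1 and 29.9 in bone marrow, with blood above both other tissues in every library. Blood exceeded bone marrow (log2 fold change 0.60 ± 0.17, adjusted p = 0.0341), a call not made without lung replicate 2, without blood replicates 1, 2 and 3, without bone marrow replicates 1, 2 and 3, with RLE size factors or with no filter on low counts (adjusted p = 0.0503, 0.0725, 0.106, 0.202, 0.116, 0.109, 0.120, 0.0678 and 0.0705). Slc39a14, an importer of zinc and iron close to the read minimum, had 7.79, 5.88 and 2.63 CPM in lung, 2.72, 3.32 and 2.79 in blood and 1.45, 1.22 and 1.15 in bone marrow. Lung exceeded bone marrow (log2 fold change 2.09 ± 0.41, adjusted p = 0.00424).

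The copper carrier Slc31a2 had 34.7, 34.00 and 70.7 CPM in lung, 28.9, 11.8 and 17.3 in blood and 68.2, 79.6 and 107 in bone marrow. Blood was below bone marrow in every library (log2 fold change -2.14 ± 0.40, adjusted p = 0.00573). Slc31a1, the copper importer, had 21.3, 21.9 and 40.4 CPM in lung, 17.6, 10.9 and 13.3 in blood and 21.8, 17.7 and 26.1 in bone marrow. The gene was higher in lung than in blood (log2 fold change 1.00 ± 0.29, adjusted p = 0.0308), a call not made without lung replicate 3, without blood replicates 1, 2 and 3, without bone marrow replicate 1 or in a fit of the 6 libraries compared (adjusted p = 0.0706, 0.0631, 0.142, 0.129, 0.0533 and 0.0636).

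Vitamin and cofactor carriers numbered 7, of which 2 were higher and 0 lower in lung against blood and 3 higher and 1 lower in lung against bone marrow. They were led in size of change by Slc23a2, the sodium-dependent importer of ascorbate, vitamin C (chromosome 2, 132052496 to 132145108 in mm10). It had 118, 117 and 231 CPM in lung, 13.8, 13 and 11.7 in blood and 23.6, 16.8 and 19.4 in bone marrow. The lowest lung library was far above the highest of the other 6. The log2 fold change was 3.60 ± 0.29 for lung over blood (adjusted p = 0.000231) and 2.96 ± 0.28 for lung over bone marrow (adjusted p = 9.79e-05). Slc52a3, a riboflavin importer near the read minimum, had 4.81, 4.32 and 2.98 CPM in lung, 0.872, 0.713 and 0.385 in blood and 1.07, 0.960 and 0.818 in bone marrow, a log2 fold change of 2.62 ± 0.44 for lung over blood (adjusted p = 0.00327). It met the minimum in lung alone, so a difference was built into its choice. Slc48a1, a haem transporter of the lysosome, had 40.5, 37.4 and 42.6 CPM in lung, 44.7, 45.2 and 47.2 in blood and 49.97, 57.1 and 56.8 in bone marrow. Its lower level in lung than in bone marrow (log2 fold change -0.44 ± 0.11, adjusted p = 0.0127) was not called without blood replicates 1, 2 and 3, without bone marrow replicate 2, with DESeq2, with RLE size factors, with upper-quartile scaling, with no filter on low counts, with limma on FPKM, in a fit of the 6 libraries compared or with halved counts (adjusted p = 0.138, 0.138, 0.112, 0.0582, 0.121, 0.151, 0.279, 0.158, 0.279, 0.101 and 0.146).

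Of the 6 lipid and choline carriers, 1 was higher and 2 lower in blood against bone marrow, and 1 higher and 1 lower in lung against blood. They included Slc27a4, which activates and takes up long-chain fatty acids. It had 429, 363 and 701 CPM in lung, 173, 119 and 158 in blood and 811, 786 and 1054 in bone marrow, and no 2 tissues overlapped. The fitted log2 fold change was -2.56 ± 0.29 for blood over bone marrow (adjusted p = 0.000486) and 1.73 ± 0.28 for lung over blood (adjusted p = 0.00288), so blood was the lowest tissue. Slc44a2, a choline transporter-like protein that carries a neutrophil alloantigen in human, had 266, 342 and 511 CPM in lung, 507, 491 and 666 in blood and 238, 229 and 287 in bone marrow. Its level was higher in blood than in bone marrow (log2 fold change 1.14 ± 0.26, adjusted p = 0.0139), a call not made without blood replicates 1, 2 and 3 or without bone marrow replicates 1 and 2 (adjusted p = 0.0593, 0.0587, 0.0971, 0.0671 and 0.0809). With the replicate block it was also lower in lung than in blood and higher in lung than in bone marrow (adjusted p = 0.0224 and 0.0284, against 0.129 and 0.109 without it). Slc44a1, a choline transporter, had 23.2, 29.6 and 44.4 CPM in lung, 59.8, 49.03 and 67.4 in blood and 49.3, 42.3 and 42.7 in bone marrow. It was lower in lung than in blood (log2 fold change -0.86 ± 0.23, adjusted p = 0.0223), a call not made without lung replicates 1 and 2, without blood replicates 1, 2 and 3, with DESeq2, with RLE size factors, with no filter on low counts, in a fit of the 6 libraries compared, with halved counts or with RSEM expected counts (adjusted p = 0.0604, 0.0694, 0.120, 0.0699, 0.191, 0.0597, 0.0896, 0.0694, 0.0600, 0.0702 and 0.0875). Slc10a3 had 13.2, 16.1 and 25.03 CPM in lung, 31.5, 19.95 and 27.9 in blood and 52.4, 49.9 and 65.00 in bone marrow, lower in lung than in bone marrow (log2 fold change -1.62 ± 0.26, adjusted p = 0.00147).

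Carriers of ions, pH and cell volume numbered 13, of which 0 were higher and 2 lower in lung against blood. There 13.2% of all tested genes were higher and 15.7% lower. In blood against bone marrow 4 were higher and 2 lower, beside 8.34% and 13.1% of all tested genes. In lung against bone marrow 4 were higher and 4 lower, beside 15.6% and 22.6%. Slc12a9, a relative of the chloride cotransporters, had 26.1, 29.3 and 29.9 CPM in lung, 74.1, 76.8 and 96.5 in blood and 46.7, 50.96 and 53.7 in bone marrow, with no overlap of any 2 tissues. On the log2 scale its fold change was -1.54 ± 0.14 for lung over blood (adjusted p = 0.000251) and -0.83 ± 0.14 for lung over bone marrow (adjusted p = 0.00165). Slc4a7, a sodium-bicarbonate cotransporter, had 21.3, 23.4 and 19.2 CPM in lung, 18.9, 22.6 and 10.96 in blood and 7.37, 6.08 and 5.04 in bone marrow. It was higher in blood and in lung than in bone marrow (log2 fold changes 1.51 ± 0.27 and 1.79 ± 0.27; adjusted p = 0.00480 and 0.000989). Slc4a2, which exchanges chloride for bicarbonate, had 34.6, 32.9 and 27.98 CPM in lung, 43.1, 45.7 and 53.5 in blood and 63.3, 70.3 and 66.9 in bone marrow, a log2 fold change of -1.07 ± 0.13 for lung over bone marrow (adjusted p = 0.000357). Slc8a1, the sodium-calcium exchanger, stood at 3.54, 5.94 and 2.04 CPM in lung, 5.38, 6.81 and 2.67 in blood and 0.763, 0.392 and 0.384 in bone marrow. It was close to the read minimum, which it met in blood alone, and was called higher in blood than in bone marrow (3.27 ± 0.56, adjusted p = 0.00422) except with limma on FPKM (adjusted p = 0.0599).

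Slc9a9, a sodium-proton exchanger of endosomes, had 20.4, 24.7 and 38.01 CPM in lung, 36.3, 35.6 and 35.4 in blood and 23.2, 21.6 and 17.6 in bone marrow. Blood exceeded bone marrow in every library (log2 fold change 0.78 ± 0.22, adjusted p = 0.0340), a call not made without blood replicates 1, 2 and 3, without bone marrow replicates 1, 2 and 3, with RLE size factors or with no filter on low counts (adjusted p = 0.134, 0.133, 0.142, 0.0731, 0.109, 0.142, 0.0618 and 0.0678).

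Nucleoside carriers numbered 5, of which 3 were higher and 1 lower in lung against blood, and 3 higher and 1 lower in lung against bone marrow. The 3 higher ones, Slc43a3, Slc29a1 and Slc29a2, met the read minimum in lung alone, so a difference was built into their choice. Slc43a3, which takes up purine bases, had 31.96, 19.1 and 4.74 CPM in lung, 0.850, 0.452 and 0.317 in blood and 6.41, 4.29 and 2.51 in bone marrow. Slc29a1, the equilibrative nucleoside transporter of the plasma membrane, had 23.2, 20.9 and 3.18 CPM in lung, 2.51, 2.87 and 1.27 in blood and 4.34, 2.59 and 2.22 in bone marrow. In both genes lung replicate 3 was the lowest lung library and lay within the range of bone marrow, as the plot of marker sums and members shows. The log2 fold change of lung over blood was 5.10 ± 0.76 for Slc43a3 (adjusted p = 0.00191), a call not made with limma-voom (adjusted p = 0.0731). For Slc29a1 it was 2.83 ± 0.68 (adjusted p = 0.0142), a call not made without blood replicate 3, with limma-voom or with limma on FPKM (adjusted p = 0.0542, 0.113 and 0.0660). Fibroblast markers were also lowest in that lung library, at 98.2 CPM in lung replicate 3 against 1668 and 1351 CPM in lung replicates 1 and 2, and so were the 9 endothelial markers, at 23.3 against 86.6 and 60.4, which summed to 13.8 to 18.1 in blood and 15.1 to 17.0 in bone marrow with Kdr, Cldn5 and Tek at 0 in every blood library. Their part in these 2 genes was not tested.

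Slc29a2 and Slc29a3 showed no such spread. Slc29a2, the second equilibrative nucleoside transporter, had 4.78, 5.56 and 4.87 CPM in lung, 1.07, 1.13 and 0.793 in blood and 0.644, 0.568 and 0.281 in bone marrow, a log2 fold change of 2.34 ± 0.41 for lung over blood (adjusted p = 0.00365). Slc29a3, which lets nucleosides out of the lysosome, had 9.95, 13.3 and 12.04 CPM in lung, 22.95, 25.7 and 27.4 in blood and 24.8, 26.99 and 22.5 in bone marrow. Lung was the lowest tissue, with log2 fold changes of -1.11 ± 0.15 against blood (adjusted p = 0.00128) and -1.07 ± 0.15 against bone marrow (adjusted p = 0.000683). Slc28a2, the sodium-coupled purine nucleoside importer, was the most abundant of the 5 by FPKM in each tissue and passed in no comparison without the replicate block, with 54.7, 68.5 and 98.9 CPM in lung, 88.2, 96.03 and 119.6 in blood and 92.9, 99.8 and 119.7 in bone marrow (adjusted p = 0.927, 0.174 and 0.118 in blood against bone marrow, lung against blood and lung against bone marrow). With the block it was lower in lung than in blood (adjusted p = 0.0211) and than in bone marrow (adjusted p = 0.0114).

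**Figure D5:**
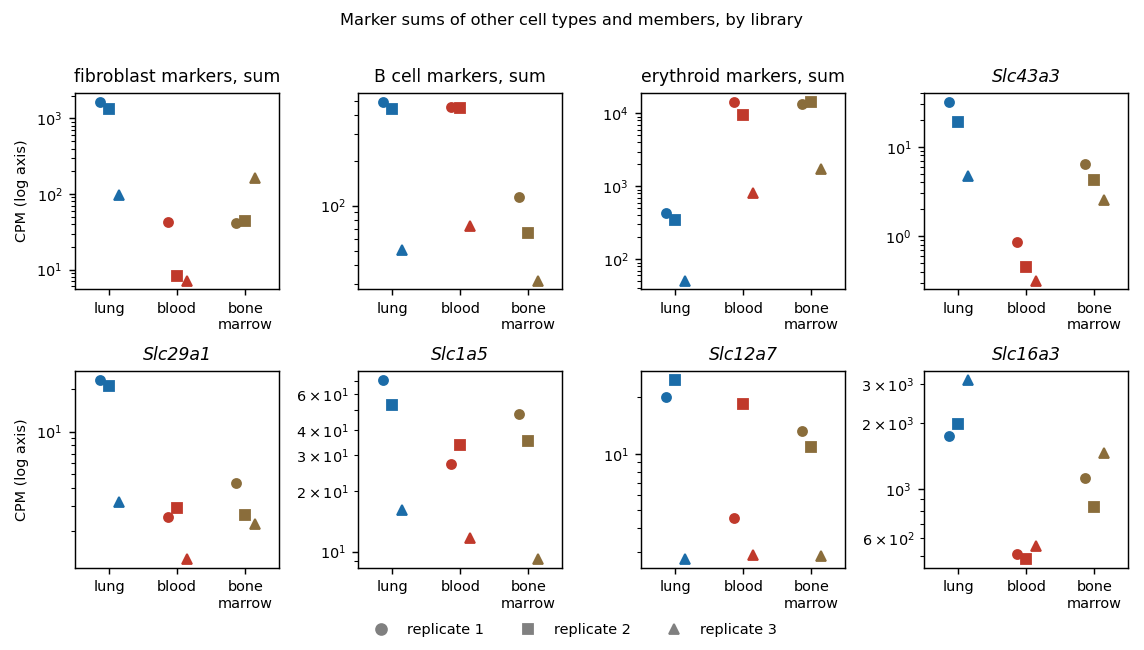
Summed CPM of fibroblast, B cell and erythroid markers and CPM of 5 members, on log axes, with 1 point per library for lung, blood and bone marrow and replicates marked by shape. Slc43a3, Slc29a1, Slc1a5 and Slc12a7 are lowest in replicate 3 of every tissue, and Slc16a3 is highest in lung replicate 3.

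Slc1a5, a glutamine importer, and Slc12a7, a potassium-chloride cotransporter, were lowest in replicate 3 of every tissue. Slc1a5 had 70.6, 53.2 and 16.02 CPM in lung, 27.1, 33.5 and 11.6 in blood and 47.7, 35.2 and 9.23 in bone marrow. Slc12a7 had 20.2, 24.8 and 2.76 CPM in lung, 4.53, 18.5 and 2.90 in blood and 13.3, 10.8 and 2.84 in bone marrow. The B cell marker sum was also lowest in replicate 3 of every tissue, and its part in these values was not tested. Neither gene passed in any comparison, with adjusted p of 0.765, 0.342 and 0.507 for Slc1a5 and 0.976, 0.524 and 0.504 for Slc12a7 in blood against bone marrow, lung against blood and lung against bone marrow. Other members lowest in replicate 3 of every tissue included Slc2a9, Slc4a7, Slc7a5, Slc8a1, Slc15a2, Slc29a1, Slc43a3 and Slc52a3. All of these but Slc7a5 were called in at least 1 comparison. The part of B cell transcripts in their levels was not tested.

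Carriers of nucleotide sugars and sugar phosphates, 10 genes of the Golgi and endoplasmic reticulum, had 1 higher and 4 lower member in lung against blood, and 2 higher and 5 lower in lung against bone marrow. Slc35a5 had the largest fall of all 131 genes in lung against blood. It had 18.8, 34.4 and 42.8 CPM in lung, 120.1, 128 and 183 in blood and 85.4, 101 and 109 in bone marrow, and every lung library lay below all others. The gene's log2 fold change was -2.17 ± 0.30 for lung over blood (adjusted p = 0.00141) and -1.62 ± 0.30 for lung over bone marrow (adjusted p = 0.00280). Slc37a2, a sugar-phosphate exchanger of the endoplasmic reticulum, had 13.2, 20.2 and 28.95 CPM in lung, 45.1, 50.02 and 72.3 in blood and 39.4, 43.4 and 57.8 in bone marrow. It was lower in lung than in blood (log2 fold change -1.42 ± 0.30, adjusted p = 0.00836), a call not made without blood replicate 3 (adjusted p = 0.0693). Slc35a4 went the other way within the group, with 33.4, 31.3 and 44.7 CPM in lung, 19.7, 17.9 and 17.3 in blood and 22.6, 21.7 and 27.3 in bone marrow, higher in lung than in blood (log2 fold change 1.00 ± 0.17, adjusted p = 0.00305). Among the 4 organic ion carriers, Slc22a15 was the most abundant by FPKM in each tissue and had 157, 157 and 231 CPM in lung, 116, 92.6 and 143 in blood and 169, 161 and 194 in bone marrow. It was higher in lung than in blood with the replicate block (adjusted p = 0.00810) and did not pass without it (adjusted p = 0.0558). Slc22a20, an organic anion transporter of low level, had 0.817, 1.26 and 1.86 CPM in lung, 1.53, 1.49 and 2.38 in blood and 3.79, 5.19 and 5.86 in bone marrow, a log2 fold change of -1.92 ± 0.41 for lung over bone marrow (adjusted p = 0.00666). It met the read minimum in bone marrow alone. Slc22a4, an importer of ergothioneine, was lower in lung than in bone marrow (log2 fold change -1.83 ± 0.31, adjusted p = 0.00177).

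Of the 5 genes that are not carriers, Slc9a3r1, a scaffold that ties membrane transporters to the actin cortex, was the most abundant by FPKM in each tissue. It had 552, 492 and 937 CPM in lung, 348, 238 and 334 in blood and 357, 396 and 567 in bone marrow. The gene was higher in lung than in blood (log2 fold change 1.11 ± 0.30, adjusted p = 0.0236), a call not made without blood replicates 1, 2 and 3 (adjusted p = 0.0888, 0.135 and 0.0938). With the replicate block it was also higher in lung than in bone marrow (adjusted p = 0.0492, against 0.151 without it). Slc7a6os had 25.99, 23.6 and 32.8 CPM in lung, 22.98, 17.7 and 20.7 in blood and 11.5, 11.3 and 10.7 in bone marrow, and was higher in lung than in bone marrow (log2 fold change 1.30 ± 0.16, adjusted p = 0.000373).

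Proteins that work with these carriers were followed in listed genes. Of 66 transporters without an Slc pattern symbol found in the table, 51 were tested, and 4 were higher and 6 lower in blood against bone marrow, 6 higher and 10 lower in lung against blood, and 8 higher and 14 lower in lung against bone marrow. Beside these stand the 21.4%, 28.9% and 38.2% of all tested genes called. Mpc2, a subunit of the mitochondrial pyruvate carrier, had 16.4, 16.2 and 22.8 CPM in lung, 16.7, 13.4 and 16.8 in blood and 48.2, 53.3 and 68.9 in bone marrow, a log2 fold change of -1.62 ± 0.20 for lung over bone marrow (adjusted p = 0.000320), while its partner Mpc1 did not pass (adjusted p = 0.556). Bsg, the chaperone that brings Slc16a3 to the surface, had 74.5, 63.9 and 62.1 CPM in lung, 55.8, 48.3 and 61.9 in blood and 62.6, 62.9 and 67.3 in bone marrow and did not pass in lung against blood (adjusted p = 0.162). Of the 13 chaperones and complex subunits in the table, 1 was higher and 4 lower in blood against bone marrow, 1 higher and 0 lower in lung against blood, and 1 higher and 5 lower in lung against bone marrow. Of 24 listed ion regulators, not all tested, 2 were higher and 4 lower, 6 and 2, and 4 and 4, in that order. Of 18 listed transcription partners, not all tested, 1 was higher and 4 lower, 4 and 3, and 3 and 3. Of all tested genes, 8.34% were higher and 13.1% lower, 13.2% and 15.7%, and 15.6% and 22.6%, in the same order. Atp1b3, a subunit of the sodium pump that drives the sodium-coupled carriers, was higher in lung than in blood (log2 fold change 1.36 ± 0.23, adjusted p = 0.00309).

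For lung against blood a second count was available, since RSEM expected counts were deposited for those 6 libraries. The fold changes of all 131 genes had the same sign by both counts. Of the 55 members called by the series table, 41 were also called by RSEM, 26 higher and 15 lower. Like Slc38a1, other named members had series reads outside 1.5 to 2.5 times their RSEM counts. The ratios were 1.24 for Slc25a3, 1.44 for Slc3a2, 1.21 for Slc25a28 and 1.00 for Slc44a1. In the edgeR fit of RSEM counts Slc25a3 and Slc3a2 were called higher in lung than in blood (adjusted p = 0.00652 and 0.00374).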

How the data were processed

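RNA from sorted mouse neutrophils was sequenced in 9 libraries, 3 each from lung, blood and bone marrow. The series table gives, per transcript, read counts and FPKM values that the authors deposited, and per-library tables of blood and lung hold expected counts and TPM made by the authors with RSEM, per the file headers. The submitters' processing notes name Bowtie2, STAR, StringTie 2.1.3b, RSEM, DESeq2 and mm10; no source used here gives their roles or whether counting used strand, and the labels name both a standard and a stranded kit. Series read counts were 1.87 to 1.90 times the RSEM totals of the same libraries, so they may count each read pair as 2, and an alternative halved them. TPM was not used. Series columns carry numbers 1 higher than the titles do and were matched through the per-library file names; 0 columns were left unmapped.

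Counts were summed by gene ID over 36780 transcripts, and FPKM likewise. Genes kept by edgeR's filterByExpr (13510) were fitted on group means over all 9 libraries with TMM scaling and the robust quasi-likelihood test (edgeR 4.0.16, limma 3.58.1, R 4.3.3), with Benjamini-Hochberg adjustment over those genes; the code was tested on simulated data. Called means an adjusted p under 0.05. CPM uses TMM-scaled library sizes, errors on log2 fold changes are standard errors, and 3 reads per library was taken as the floor. Expected counts were rounded before their edgeR fit. Tables were made with Python 3.11.15 (pandas 2.3.3 on numpy 2.4.6) and drawn with matplotlib 3.10.9. Nothing in the labels says whether replicates shared mice or days, so p-values measure the spread between these samples. The floor covers counting error alone.

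The members, roles and gene lists were chosen with earlier results of these data known. Genes were named by rule: per comparison the 10 largest rises and 10 largest falls among members called, of 20 CPM or more in the higher tissue and without overlap; the 12 of highest FPKM; per role the most abundant member and the called member of largest change; and those next to the read minimum. Others (Slc1a5, Slc2a9, Slc4a2, Slc7a5, Slc22a4, Slc25a28, Slc25a42, Slc29a1, Slc29a2, Slc31a1, Slc32a1, Slc35a4, Slc36a3 and the partner genes named) were picked after their values were seen. Alternatives were RLE and upper-quartile scaling, no filter on low counts, DESeq2 1.42.0, limma-voom, limma on log2(FPKM + 1), a fit of the 6 libraries compared, halved counts, RSEM expected counts for lung against blood, a replicate block, and leaving out each library. The titles give the same replicate numbers in each tissue. The deviations of same-numbered libraries from their tissue means correlated over 0.1 in each of 3 pairs of lung with blood (0.127 to 0.518) and of lung with bone marrow (0.153 to 0.186). The numbers were taken as pairs there from the data, not from a label. Not every library correlated best with its own number: lung 1 stood at 0.453 with blood 2 and at 0.127 with blood 1. Lung 2 stood at 0.145 with bone marrow 1, against 0.174 with bone marrow 2. These correlations cannot settle whether the libraries are paired, and calls made only with the block depend on that choice. Some genes that the rule names are not reported here.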

Additional observations from a re-analysis of the deposited data

How the results depend on the processing

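No called change of a named member turned its direction under the alternatives. In blood against bone marrow the count of higher members was 29 with limma on FPKM and 31 in a fit of the 6 libraries, and 10 to 25 with 1 library left out; that of lower members was 10 with no filter on low counts, 13 with halved counts and 6 to 27 with 1 library left out. In lung against blood it was 21 to 31 higher and 7 to 41 lower with 1 library left out, and 17 lower with RLE size factors and 15 with RSEM expected counts. In lung against bone marrow it was 24 to 38 higher and 27 to 48 lower with 1 library left out. Members highest in lung numbered 16 to 23, in blood 1 to 11 and in bone marrow 4 to 19 with 1 library left out; with limma on FPKM 14 were highest in blood, and in bone marrow 10 with RLE, upper-quartile scaling or limma on FPKM, 6 with no filter and 9 with halved counts. Calls made in each of the 9 fits that left out 1 library numbered 7 of 19 higher and 6 of 21 lower in blood against bone marrow, 20 of 27 and 6 of 28 in lung against blood, and 24 of 36 and 26 of 40 in lung against bone marrow. The cause of these shifts was not tested, apart from the smaller number of libraries where some were left out. With the replicate block 53, 73 and 88 members were called in blood against bone marrow, lung against blood and lung against bone marrow, against 40, 55 and 76 without it. Beyond the members given in the text, the block changed no call of a named member in the comparisons with lung. In blood against bone marrow 1 of the 3 same-numbered pairs correlated at 0.0489, so the numbers were not taken as pairs there. Depth sets the floor at 0.0521 to 0.0767 CPM.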
